A study of Homo sapiens with 12 samples.

Results

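Small nucleolar RNAs (snoRNAs) are mostly cut from the introns of longer transcripts, and the 10 genes described here are noncoding hosts of this kind: SNHG1, SNHG5, SNHG6, SNHG7, SNHG8, SNHG12, SNHG15, SNHG16, GAS5 and ZFAS1. They were taken by symbol from the 22148 genes of the tables; the rule uses no measured value, but it was set with earlier results of these data known. The cells were HepG2, a human liver cancer line, in which CPSF6 was silenced by RNA interference (siCPSF6) or which received control siRNA (siNC). CPSF6 encodes a subunit of cleavage factor Im, which helps to select the 3′ end of nascent RNA. After 48 h, actinomycin D, which blocks transcription, was added at 5 µg/ml, and RNA was collected after 0, 3 and 6 h. That gave 6 groups (siCPSF6 at 0, 3 and 6 h, and siNC at 0, 3 and 6 h) of 2 biological replicates, 12 libraries in all. The design asks how silencing changed RNA levels before and during the block. The labels give neither the siRNA sequences nor how many were used, and all cells were of this 1 line.

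In snoRNA hosts the exons are spliced together while the introns release the snoRNAs, which guide the ribose methylation (box C/D snoRNAs) or the pseudouridylation (box H/ACA snoRNAs) of ribosomal RNA. In noncoding hosts the spliced exons carry no long conserved reading frame. Several of these RNAs, GAS5 above all, are known as substrates of nonsense-mediated decay, the pathway that degrades RNAs whose translation stops early, so that they accumulate when translation is slowed. GAS5 was named for its rise in growth-arrested cells. Many hosts begin, like the mRNAs of ribosomal proteins, with a C followed by further pyrimidines, a tract that ties translation to growth signals. The libraries were made from mRNA, so the values below are for the host RNAs and not for the snoRNAs. Spliced and unspliced forms of a host were not counted apart.

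The first 25 bases of annotated transcripts are shown because such a tract is the sequence feature that most of these genes shared. The search was for a C at the first base that opens an unbroken run of at least 4 pyrimidines (C or T), on the transcript strand. Capitals mark the run, and sequences read 5′ to 3′ on GRCh38 with GENCODE release 29 starts. For each gene shown, the start given is the one shared by the most transcripts among its starts with a run. The minimum run and this choice of start were made after the sequences had been seen.
SNHG5: CTTTTacgtcggccttcgcgagcgt
SNHG7: CTCTgcgtgcgccggaggctgccgt
SNHG12: CCTTTCTCCCCgccgcattcccggt
SNHG16: CTTTTCgaggtcggccgcgtggctg
GAS5: CTTTTCgaggtaggagtcgactcct
ZFAS1: CTTTCgcgtctgcggtgcccggagt
These stretches lie at chr6:85678709-85678733 (minus strand) for SNHG5, chr9:136728160-136728184 (minus) for SNHG7, chr1:28581849-28581873 (minus) for SNHG12, chr17:76557769-76557793 (plus) for SNHG16, chr1:173867965-173867989 (minus) for GAS5 and chr20:49278642-49278666 (plus) for ZFAS1. A run was found in at least 1 annotated transcript of 9 of the 10 genes (90%), against 3239 of 12882 tested genes (25.1%) and 70 of 82 ribosomal protein genes (85.4%). SNHG15 had none, and SNHG1 and SNHG8 had it in 1 transcript each, of 25 and of 5. SNHG6 had a run in 3 of 5 transcripts, and its start is not shown here. Among the genes shown, a run stood in 4 of 23 transcripts of SNHG5, 3 of 4 of SNHG7 and 4 of 17 of SNHG12. For SNHG16 it was 2 of 8, for GAS5 6 of 29 and for ZFAS1 3 of 10. Genes with many annotated transcripts have more chances to show a run. Counted by transcript, it stood in 27 of 136 transcripts of the host genes (19.9%), against 4772 of 116864 transcripts of tested genes (4.08%). These shares are a description, and where transcription began in these cells was not measured.

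By the RefSeq spans of the snoRNA genes, SNHG1 held 8 box C/D snoRNAs, SNHG5 held 2 (SNORD50A and SNORD50B), SNHG6 held 1, SNHG16 held 3 and ZFAS1 held 3. GAS5 held 11, of which 10 were of the C/D kind. Box H/ACA snoRNAs lay in SNHG7 (2), SNHG8 (1), SNHG15 (1) and SNHG12 (3, beside 1 C/D snoRNA). None of the 10 genes overlapped another listed gene on its own strand. On the opposite strand SNHG6, SNHG7, SNHG12, SNHG16, GAS5 and ZFAS1 each overlapped at least 1 listed gene. The kit keeps strand, but whether reads were counted by strand is not given in the sources used here, so these 6 are uncertain to that extent. DIPK1B, which overlaps SNHG7, had a mean normalized count of 741, TRNAU1AP (with SNHG12) 327, ZBTB37 (with GAS5) 170 and ZNFX1 (with ZFAS1) 349. The genes that overlap SNHG6 and SNHG16 averaged 0.75 and 0.25.

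The libraries held 21800000 to 30300000 reads, as judged from the steps between attainable values, and their normalized counts, scaled by the authors to an equal upper quartile, summed to 19133288 to 33352246. CPSF6 had 674 to 810 normalized counts in the siCPSF6 libraries and 2082 to 3469 in the siNC libraries, without overlap. All 10 hepatocyte markers were listed, with a summed level of 20470 to 28470 TPM in siCPSF6 and 21910 to 30390 TPM in siNC. Of 5 stromal markers 3 were listed (21 to 23.81 and 26.8 to 38.75 TPM in siCPSF6 and siNC), of 3 endothelial markers 3 (0.2705 to 0.6408 and 0.2344 to 1.153 TPM), and of 4 immune markers 2 (23.04 to 38.35 and 24.68 to 42.19 TPM). PTPRC, CD3E, COL1A2 and LUM were not analysed here. The part of these markers in the results was not tested. In such bulk RNA, fewer cells with a transcript and less of it per cell cannot be told apart.

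SNHG15 was near 0 in the deposited values, with at most 3 normalized counts in a library, and it did not pass the filter of a mean of at least 20. Whether this was its level in the cells or came from how reads were assigned was not tested. The other 9 passed and were tested. Levels between genes are compared in TPM, the share of a library's transcripts after division by length. At 0 h SNHG5 stood at 229 ± 24.0 TPM in siCPSF6 and 242 ± 22.9 in siNC, and GAS5 at 254 ± 15.1 TPM in siCPSF6 and 203 ± 6.57 in siNC (SD, n = 2 each). SNHG6 followed with 161 ± 22.8 TPM in siCPSF6 and 110 ± 16.0 in siNC, ZFAS1 with 148 ± 12.5 and 121 ± 6.03, SNHG1 with 138 ± 10.4 and 131 ± 11.4, and SNHG16 with 112 ± 2.04 and 110 ± 4.06. SNHG8 had 62.2 ± 6.73 TPM in siCPSF6 and 82.8 ± 1.18 in siNC, SNHG7 65.3 ± 4.24 and 56.8 ± 1.97, and SNHG12 28.4 ± 0.907 and 27.5 ± 1.55. Neighbours in this order, such as ZFAS1 and SNHG1 or SNHG16 and SNHG6 in siNC, lay within their spread, while SNHG12 was below the other 8 tested genes in every 0 h library. Summed over the 10 genes, the level in siCPSF6 was 1210 and 1184.6 TPM at 0 h, 1046.8 and 1071.9 at 3 h, and 1153.9 and 1209.6 at 6 h. In siNC it was 1059.1 and 1110.1 TPM at 0 h, 1062.5 and 1032.3 at 3 h, and 1438.1 and 1418 at 6 h. The sum was higher in siCPSF6 than in siNC at 0 h and lower at 6 h, without overlap of the libraries at those times.

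**Figure D1:**
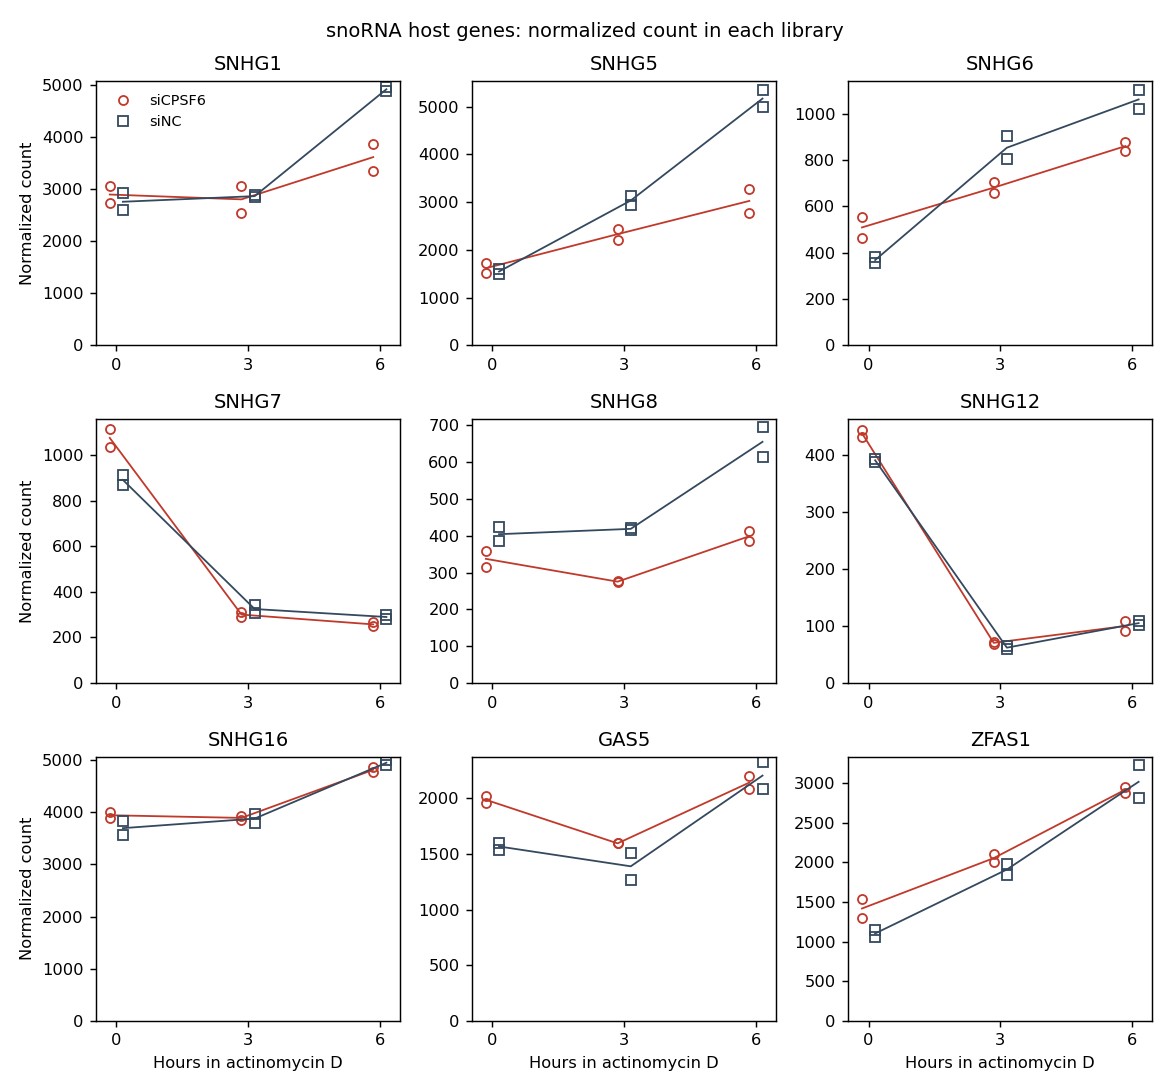
Normalized counts (vertical axis from 0) of the 9 tested host genes against hours in actinomycin D; each symbol is 1 library, lines join the means, circles are siCPSF6 and squares siNC. SNHG7 and SNHG12 drop within 3 h in both arms, and SNHG5 climbs to 2777 and 3270 at 6 h in siCPSF6 against 5342 and 4991 in siNC.

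The first question was how each host RNA changed once transcription was blocked. Each change is the difference between 2 group averages on the log2(normalized count + 1) scale, given with its standard error (SE) and tested with limma with Benjamini-Hochberg adjustment over 12939 genes at a threshold of 0.05. Normalized counts are relative to the rest of the library, so a gene whose RNA falls can still rise on this scale. A rise is not by itself a slower fall than that of most genes, because the median gene rose as well. The median gene moved by 0.35 from 0 to 6 h in siCPSF6 and by 0.31 in siNC. Values can instead be scaled to the ERCC spike-ins. These went into 5 µg of total RNA, so that this scale is per mass of total RNA and not per cell. On it the median gene moved by -0.50 in siCPSF6 and -0.65 in siNC.

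Among the hosts of box C/D snoRNAs, SNHG5, SNHG6 and ZFAS1 rose in both arms on the deposited scale. SNHG5 had normalized counts of 1723 and 1506 at 0 h, 2215 and 2440 at 3 h, and 2777 and 3270 at 6 h in siCPSF6. In siNC the same RNA had 1496 and 1592 at 0 h, 3127 and 2937 at 3 h, and 5342 and 4991 at 6 h. The 6 h libraries of each arm were above all of its 0 h libraries, and the siNC rise was the larger. The change over 6 h was 0.90 in siCPSF6 (SE 0.09, limma adjusted p = 2.3e-07) and 1.74 in siNC (SE 0.09, limma adjusted p = 1.1e-10). SNHG6, a short host of SNORD87, had 553 and 465 normalized counts at 0 h, 704 and 658 at 3 h, and 880 and 841 at 6 h in siCPSF6. In siNC it had 354 and 382 at 0 h, 902 and 805 at 3 h, and 1104 and 1020 at 6 h. It started higher in siCPSF6 and ended lower there, with changes of 0.76 in siCPSF6 and 1.53 in siNC (SE 0.10 each). ZFAS1, which takes its name from its place antisense to the start of ZNFX1, had 1542 and 1295 at 0 h, 2104 and 2006 at 3 h, and 2883 and 2959 at 6 h in siCPSF6. In siNC it had 1147 and 1059 at 0 h, 1982 and 1841 at 3 h, and 3230 and 2809 at 6 h. Both ZFAS1 libraries of each later time were above those of the time before in both arms, and the change over 6 h was 1.05 in siCPSF6 and 1.45 in siNC (SE 0.09 each). ZNFX1 itself moved the other way, by -1.97 in siCPSF6 and -1.63 in siNC.

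SNHG1, SNHG16 and GAS5 moved less. SNHG1 had 2742 and 3057 normalized counts at 0 h, 2553 and 3060 at 3 h, and 3359 and 3879 at 6 h in siCPSF6. The siNC libraries had 2595 and 2926 at 0 h, 2886 and 2851 at 3 h, and 4887 and 4962 at 6 h. In both arms each SNHG1 library at 6 h was above those at 3 h, and the 6 h libraries of the arms did not overlap. Its change over 6 h was 0.32 in siCPSF6 (SE 0.10, limma adjusted p = 0.007), no longer past the threshold without siCPSF6 0 h replicate 1 (0.24) or siCPSF6 6 h replicate 2 (0.21), and 0.84 in siNC. SNHG16 had 3996 and 3890 at 0 h, 3929 and 3855 at 3 h, and 4861 and 4767 at 6 h in siCPSF6, and 3833 and 3558 at 0 h, 3960 and 3798 at 3 h, and 4904 and 4997 at 6 h in siNC. The changes over 6 h were 0.29 in siCPSF6 and 0.42 in siNC (SE 0.06 each). The direction for SNHG16 turned with the unit, as it was lower in TPM (-0.46 in siCPSF6 and -0.50 in siNC) and per mass of total RNA (-0.57 and -0.54), each past the threshold, and with median-ratio scaling the siCPSF6 value was 0.01 (limma adjusted p = 0.94). GAS5 had 2020 and 1956 at 0 h, 1597 and 1595 at 3 h, and 2086 and 2200 at 6 h in siCPSF6. In siNC it had 1540 and 1596 at 0 h, 1511 and 1268 at 3 h, and 2324 and 2087 at 6 h. GAS5 dipped at 3 h in siCPSF6 (-0.32, limma adjusted p = 0.0042), where the siNC value of -0.18 missed the threshold (limma adjusted p = 0.072). GAS5 in siNC passed as lower with the replicate block, with median-ratio scaling (-0.37), in TPM (-0.33) and per mass of total RNA (-0.87), and the test of the difference between the arms over 3 h did not pass (limma adjusted p = 0.63). Over 6 h its change was 0.11 in siCPSF6, short of the threshold (limma adjusted p = 0.26), and 0.49 in siNC, past it.

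Hosts of box H/ACA snoRNAs differed among themselves. SNHG12 had 432 and 444 normalized counts at 0 h, 69 and 72 at 3 h, and 109 and 91 at 6 h in siCPSF6. In siNC it had 393 and 388 at 0 h, 65 and 59 at 3 h, and 109 and 101 at 6 h. SNHG12 fell in both arms within 3 h, with changes of -2.62 in siCPSF6 and -2.64 in siNC (SE 0.15 each), at percentiles 1.17 and 1.72 of all tested genes. SNHG7 had 1036 and 1117 at 0 h, 312 and 289 at 3 h, and 266 and 249 at 6 h in siCPSF6. In siNC it had 871 and 913 at 0 h, 342 and 308 at 3 h, and 298 and 282 at 6 h. It fell in both arms, with changes over 6 h of -2.06 in siCPSF6 and -1.62 in siNC (SE 0.10 each). Neither overlapping gene shared this fall, as DIPK1B moved by 1.06 in siCPSF6 and -0.12 in siNC, and TRNAU1AP by 0.70 in siCPSF6 and 0.39 in siNC. SNHG8, the host of SNORA24, had 360 and 315 at 0 h, 275 and 276 at 3 h, and 385 and 413 at 6 h in siCPSF6. In siNC it had 386 and 423 at 0 h, 417 and 421 at 3 h, and 697 and 614 at 6 h. SNHG8 was highest at 6 h in both arms by its mean, with a change over 6 h of 0.24 in siCPSF6 (SE 0.11, limma adjusted p = 0.055, past the threshold with the replicate block) and 0.69 in siNC (SE 0.11, limma adjusted p = 2.9e-05).

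At 3 h against 0 h, 3 of the 9 genes were higher in siCPSF6 (SNHG5, SNHG6 and ZFAS1) and 4 lower (SNHG7, SNHG8, SNHG12 and GAS5), beside 43.6% of all genes higher and 22.9% lower. In siNC the same 3 were higher and 2 lower (SNHG7 and SNHG12), beside 45.8% and 25.7% of all genes. Over 6 h, 5 were higher and 2 lower in siCPSF6 (49.8% and 27.6% of all genes) and 7 higher and 2 lower in siNC (48.6% and 30.7%). Relative to the median gene, SNHG5 (0.55 in siCPSF6, 1.44 in siNC), SNHG6 (0.41, 1.22) and ZFAS1 (0.69, 1.14) were above it over 6 h in both arms. SNHG1 (-0.04, 0.53), SNHG8 (-0.11, 0.39), SNHG16 (-0.07, 0.12) and GAS5 (-0.25, 0.18) were below it in siCPSF6 and above it in siNC. These counts follow the scaling. Per mass of total RNA none was higher and 6 were lower over 6 h in siCPSF6 (5.83% and 52.4% of all genes), and 3 were higher and 4 lower in siNC (10.2% and 57.7%). The 3 higher in siNC on that scale were SNHG5 (0.78, SE 0.16), SNHG6 (0.56, SE 0.16) and ZFAS1 (0.49, SE 0.15), while in siCPSF6 they had 0.04, -0.10 and 0.19, short of the threshold. At 3 h, 6 were lower in each arm on that scale (38.4% of all genes in siCPSF6 and 48.8% in siNC), and SNHG6 in siNC alone was higher (0.52, limma adjusted p = 0.0062, with 4.13% of all genes higher). In TPM, where the median gene moved by -0.37 in siCPSF6 and -0.50 in siNC over 6 h, 3 of the 9 were higher and 3 lower in siCPSF6 (14.3% and 48.5% of all genes), and 4 higher and 3 lower in siNC (16.2% and 53.2%). SNHG5 and ZFAS1 were higher in both arms in TPM, while SNHG8 passed in siCPSF6 and SNHG1 and SNHG6 passed in siNC. At 3 h in TPM none was higher and 4 were lower in siCPSF6 (9.49% and 36.4%), and 2 were higher and 4 lower in siNC (11.4% and 42.1%). The falls of SNHG7 and SNHG12 were called under each scaling, while those signs of SNHG1, SNHG8, SNHG16 and GAS5 over 6 h that were positive as deposited turned negative per mass of total RNA, as did that of SNHG6 in siCPSF6.

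**Figure D2:**
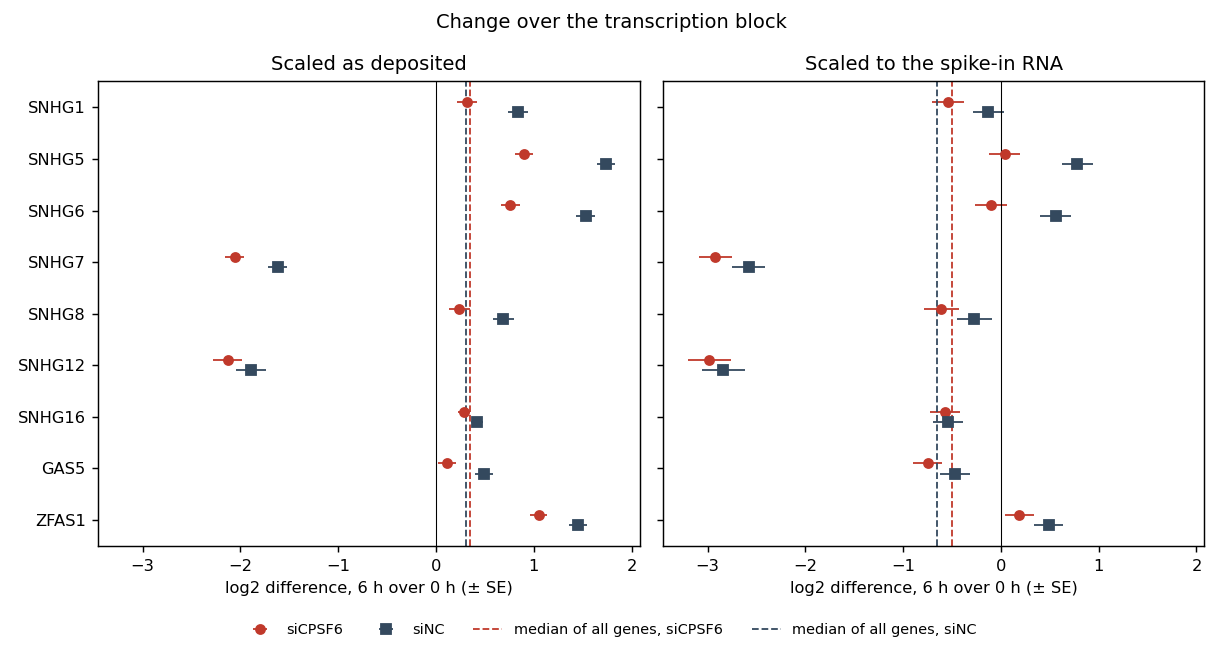
Log2 difference of 6 h over 0 h (horizontal axis, bars are ± SE) for each tested host gene, scaled as deposited on the left and to the spike-in RNA on the right; circles are siCPSF6, squares siNC, and dashed lines mark the median of all tested genes in each arm. Every siCPSF6 point lies left of its siNC point on both scales, and the change of scale moves the genes and the medians to the left.

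The comparison of the arms at each time asks how silencing changed the levels. At 0 h, 4 of the 9 genes were higher in siCPSF6 and none lower, beside 21.8% of all genes higher and 21.1% lower. SNHG6 was higher by 0.46 (SE 0.10, limma adjusted p = 0.002), ZFAS1 by 0.36 (SE 0.09, limma adjusted p = 0.0054), GAS5 by 0.34 (SE 0.09, limma adjusted p = 0.0047) and SNHG7 by 0.27 (SE 0.10, limma adjusted p = 0.045). In each of these 4 genes both siCPSF6 libraries were above both siNC libraries. SNHG8 had -0.26 at 0 h, short of the threshold (limma adjusted p = 0.067) and past it with the replicate block. In TPM SNHG8 was lower at 0 h (-0.42, limma adjusted p = 0.012) and SNHG7 at 0.20 did not pass, so that 3 of the 9 were higher and 1 lower (17.5% and 15.2% of all genes). The call for SNHG7 was lost when any single 0 h library was left out. That for ZFAS1 was lost without siCPSF6 0 h replicate 1 (0.23) and without siNC 0 h replicate 2 (0.30), which left 2 genes called. None of the 9 passed per mass of total RNA (8.93% of all genes higher and 19.7% lower), where SNHG6 had 0.33, ZFAS1 0.22, GAS5 0.21 and SNHG7 0.14 and the median gene moved to -0.13.

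At 3 h none of the 9 was higher and 3 were lower in siCPSF6, beside 26.2% of all genes higher and 29.1% lower. SNHG8 stood at 0.658 of the siNC level (-0.60, SE 0.11, limma adjusted p = 0.00029). SNHG5 had -0.38 (limma adjusted p = 0.0023) and SNHG6 -0.32 (limma adjusted p = 0.015). GAS5 had 0.21, which missed the threshold (limma adjusted p = 0.053) and passed it with median-ratio scaling (0.24) and with the replicate block. In TPM 2 genes were higher at 3 h, SNHG12 (0.43, limma adjusted p = 0.012) and GAS5 (0.26, limma adjusted p = 0.016), and 2 lower, SNHG5 (-0.29) and SNHG8 (-0.31), beside 25.9% of all genes higher and 18.6% lower. At 6 h none was higher and 4 were lower, beside 27% of all genes higher and 28.6% lower. SNHG5 stood at 0.584 of the siNC level (-0.78, SE 0.09, limma adjusted p = 4.1e-06), SNHG8 at 0.61 (-0.71, SE 0.11, limma adjusted p = 6e-05), SNHG1 at 0.733 (-0.45, SE 0.10, limma adjusted p = 0.001) and SNHG6 at 0.811 (-0.30, SE 0.10, limma adjusted p = 0.02). All 9 values were negative at 6 h on the deposited scale (in TPM SNHG6, SNHG16 and ZFAS1 were at 0.01, 0.06 and 0.02), and SNHG16, GAS5 and ZFAS1 at -0.04 each were within 1 SE of 0. Per mass of total RNA 1 was lower at 3 h and 3 at 6 h (18.4% and 21.6% of all genes), the 3 being SNHG5 (-0.81), SNHG8 (-0.74) and SNHG1 (-0.48). In TPM none was higher and the same 3 were lower at 6 h (27.8% and 18.2% of all genes), with SNHG8 at -0.38.

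The lower SNHG6 values depended on the unit. In TPM the gene had 164.4 and 162.5 at 3 h and 163.1 and 166.5 at 6 h in siCPSF6, against 143.4 and 125 at 3 h and 172.9 and 154.8 at 6 h in siNC. On log2(TPM + 0.1) the difference was 0.29 at 3 h (limma adjusted p = 0.071) and 0.01 at 6 h (limma adjusted p = 0.95), so no fall of SNHG6 is called per length. Its calls on normalized counts were also lost at 3 h without siCPSF6 replicate 2 or siNC replicate 1, and at 6 h without those same-numbered 6 h libraries.

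**Figure D3:**
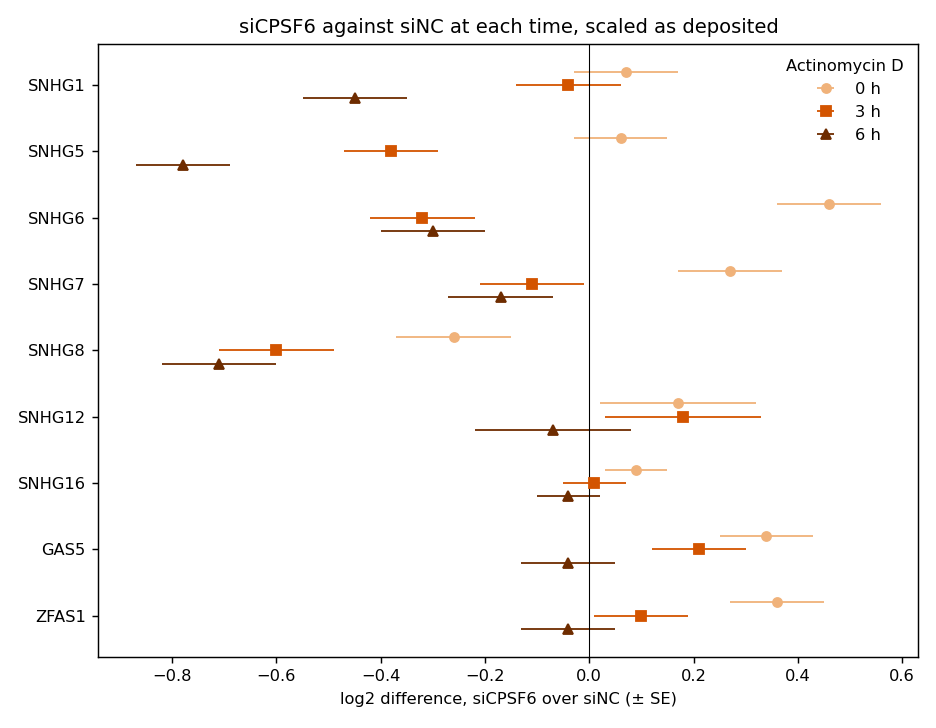
Log2 difference of siCPSF6 over siNC (horizontal axis, bars are ± SE) at 0 h (circles), 3 h (squares) and 6 h (triangles) for each tested host gene, scaled as deposited. In 8 of 9 genes the 0 h value is above 0 (SNHG8 is the exception at -0.26), and at 6 h all 9 lie below 0, by 0.04 to 0.78; in TPM, not drawn, SNHG6, SNHG16 and ZFAS1 lie just above 0 at 6 h, and per mass of total RNA SNHG1, SNHG5 and SNHG16 lie below 0 at 0 h.

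The test that speaks to the course during the block is the difference between the arms of the change from 0 h, siCPSF6 minus siNC. Over 6 h it was negative in all 9 genes on the deposited scale (in 7 of 9 in TPM) and passed the threshold in 7, with none higher, beside 12.4% of all genes lower and 12% higher. The largest differences were in SNHG5 (-0.84, SE 0.13, limma adjusted p = 0.00031) and SNHG6 (-0.76, SE 0.14, limma adjusted p = 0.0015). SNHG1 had -0.52 (SE 0.13, limma adjusted p = 0.012), SNHG8 -0.45 (SE 0.16, limma adjusted p = 0.046), SNHG7 -0.44 (SE 0.14, limma adjusted p = 0.038), ZFAS1 -0.40 (SE 0.13, limma adjusted p = 0.035) and GAS5 -0.38 (SE 0.12, limma adjusted p = 0.032). SNHG12 at -0.24 and SNHG16 at -0.13 did not pass (SE 0.21 and 0.09). The median of the 9 was -0.44, against -0.03 over all genes. These differences use the same 0 h and 6 h libraries as the comparisons above, and the 0 h excess in siCPSF6 and the 6 h deficit both enter them.

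How many of the 7 calls held depended on the scaling and on single libraries. Per mass of total RNA the call remained for 1 gene, SNHG5 (-0.73, SE 0.22, limma adjusted p = 0.028), with 1.84% of all genes lower and 6.89% higher, and SNHG6 had -0.66 (limma adjusted p = 0.065). All 9 values stayed negative there, and the SE was 0.21 to 0.31, against 0.09 to 0.21 as deposited. The spike-in factors of the 3 h siCPSF6 libraries were 1.2122 and 0.93873, those of the 6 h siNC libraries 1.4102 and 1.2151. In TPM the call likewise remained for SNHG5 alone (-0.63, limma adjusted p = 0.0094; 4.38% of all genes lower and 8.47% higher), with SNHG6 at -0.53 (limma adjusted p = 0.063) and with SNHG8 and SNHG16 above 0, at 0.04 and 0.05. Leaving out 1 library lowered the count to 3 or 4 of 9 for either 0 h library of either arm, either 6 h siCPSF6 library or siNC 6 h replicate 1. SNHG5 and SNHG6 were called in each of the 12 fits without 1 library, SNHG1 in 9, ZFAS1 in 7, GAS5 and SNHG7 in 6 and SNHG8 in 2. Without the filter on the mean, or with limma without its trend and robust settings, 3 of the 7 passed. The shares of all genes called in these fits, and in those without 1 library, are not given here. Whether the lost calls were particular to the host genes was therefore not tested.

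The difference was also set beside that of other genes with a siNC change in the same range. The 7 genes that rose in siNC had changes there of 0.42 to 1.74, and 5505 tested genes lay in that range. Of these, 71.7% had a negative difference and 19.8% were called lower, with a median of -0.18, against a median of -0.45 for the 7 host genes, of which 6 were called. This range was set after the values were seen and shares the siNC libraries with the difference. The siNC change is subtracted in the difference, so genes picked for a high siNC change lean to negative values. It is a description with no test, and a relation with the size of the siNC change was not measured. Over 3 h only SNHG6 passed (-0.79, SE 0.14, limma adjusted p = 0.0091; 0.734% of all genes lower). The SNHG6 call was lost without siCPSF6 0 h replicate 1 (-0.66) or siNC 0 h replicate 1 (-0.73), and none of the 9 passed per mass of total RNA (0.0464% of all genes lower) or in TPM (0.0246% lower and 0.435% higher). SNHG5 had -0.44 over 3 h (limma adjusted p = 0.076) and passed with the replicate block.

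**Figure D4:**
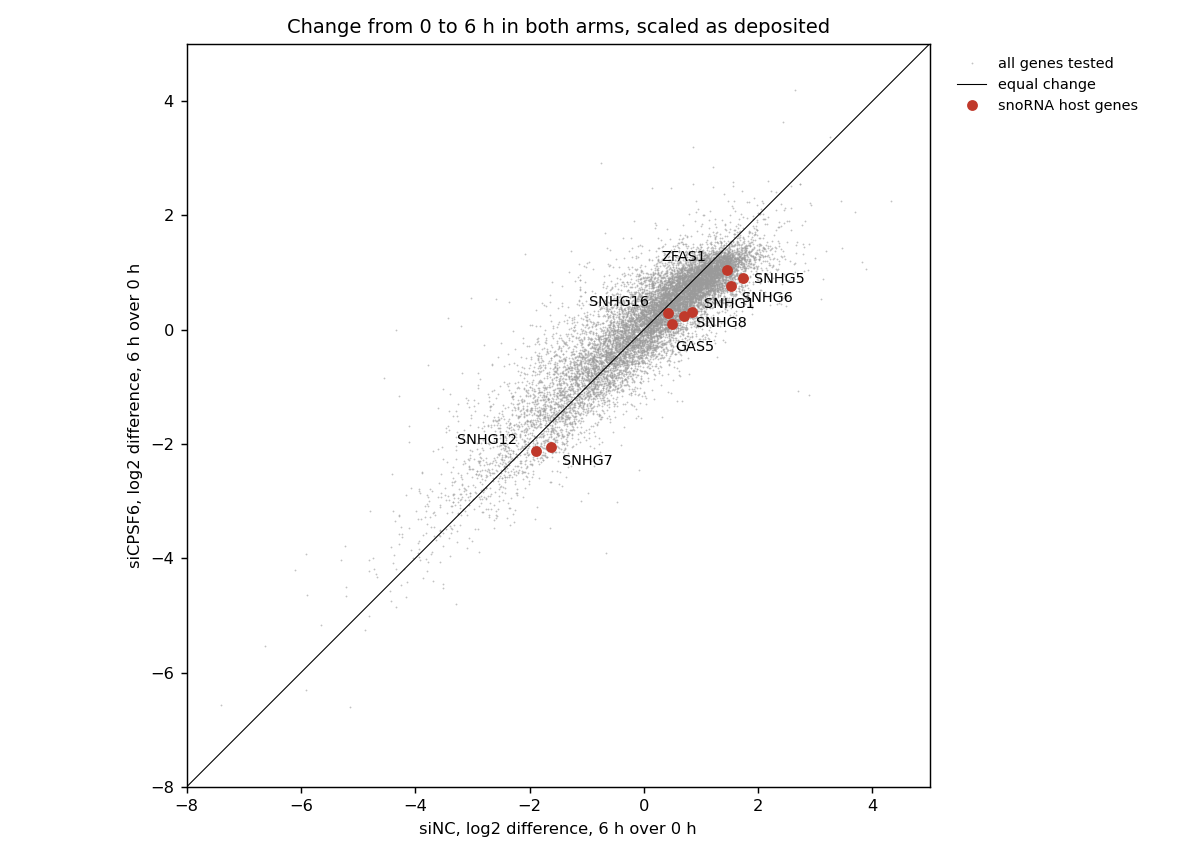
Log2 difference of 6 h over 0 h in siCPSF6 (vertical axis) against that in siNC (horizontal axis), scaled as deposited; grey points are all 12939 tested genes, red points the 9 host genes, and the line marks equal change. All 9 host genes lie below the line on this scale (7 of 9 in TPM), as do 71.7% of the genes whose siNC change was 0.42 to 1.74. That range was set after the values were seen, and picking genes by a high siNC change favours points below the line.

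Averaged over the 3 times, silencing left 2 of the 9 genes higher and 3 lower, beside 34.4% of all genes higher and 35.4% lower. SNHG8 was lower (-0.53, SE 0.06, limma adjusted p = 2.6e-06), as was SNHG5 (-0.37, SE 0.05, limma adjusted p = 1.5e-05). The other calls were small: GAS5 0.17, ZFAS1 0.14 and SNHG1 -0.14. The SNHG1 call was lost in 8 of the 12 fits without 1 library and the ZFAS1 call in 6. Per mass of total RNA 2 were lower and none higher (33.1% and 26% of all genes). SNHG6 had -0.05 in the average on the deposited scale, and in TPM it passed as higher in siCPSF6 (0.28, limma adjusted p = 0.0044).

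The ratio of normalized count to TPM follows the effective length that the authors' counter gave a gene. Its log2, centred on the median gene of each library (the apparent length), can move when longer or shorter annotated isoforms take the reads. Isoforms were not counted here, so a shift is not shown to be a change of isoform. Over 6 h the apparent length fell in 4 of the 9 genes in siCPSF6 and in 2 in siNC, and rose in none, beside 2.22% of all genes shorter and 2.01% longer in siCPSF6, and 2.3% shorter and 2.5% longer in siNC. SNHG1 became shorter, with changes of -0.46 in siCPSF6 and -0.44 in siNC (SE 0.02 each) and centred log2 values of -0.90 and -0.85 at 0 h and of -1.35 and -1.33 at 6 h in siCPSF6, and of -0.92 and -0.89 at 0 h and of -1.35 and -1.34 at 6 h in siNC. The libraries of a group were close to each other and far from those of the other time. GAS5 had -0.48 in siCPSF6 (limma adjusted p = 0.014) and -0.53 in siNC (limma adjusted p = 0.0085), both SE 0.06. SNHG8 had -0.80 in siCPSF6 (SE 0.10, limma adjusted p = 0.011) and -0.40 in siNC (limma adjusted p = 0.067, past the threshold with the replicate block). SNHG5 had -0.25 in siCPSF6 (limma adjusted p = 0.048) and -0.13 in siNC. The SNHG5 call was lost with the replicate block and in 11 of the 12 fits without 1 library, and those of GAS5 and SNHG8 in siCPSF6 in 2 each. Without siCPSF6 0 h replicate 1 or siCPSF6 6 h replicate 1 the count in siCPSF6 was 2, and without siCPSF6 0 h replicate 2 it was 1. Between the arms, averaged over the times, SNHG7 (0.08), SNHG16 (0.07) and ZFAS1 (0.06) were longer in siCPSF6, beside 40.8% of all genes longer, and the median of the 9 was 0.06 against 0.07 over all genes.

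Other genes of the pathway were followed as lists. Of 22 other noncoding snoRNA hosts 15 were tested. In the difference of the 6 h change, 4 of the 15 were lower and 1 higher, with a median of -0.22. Over all genes 12.4% were lower and 12% higher, with a median of -0.03, and these shares apply to the lists that follow as well. SNHG19 had -0.70 (SE 0.19, limma adjusted p = 0.015), while EPB41L4A-AS1 at -0.50 missed the threshold. SNHG32 at -0.19 and SNHG14 at -0.08 were also short of it. Of 28 protein-coding hosts, whose exons mostly encode ribosomal and nucleolar proteins and translation factors (the list also holds the pseudogene CCT6P1), 13 were lower and 1 higher, with a median of -0.29. EIF4A1, an RNA helicase of translation initiation, had -0.64 (SE 0.09, limma adjusted p = 0.00017), and NCL, the nucleolar protein nucleolin, was the higher one at 0.33. Per mass of total RNA 1 gene of each list was lower and none higher, beside 1.84% of all genes lower and 6.89% higher. Of 18 snoRNP proteins and assembly factors, which bind and mature the snoRNAs, 8 were lower and 2 higher (median -0.27). NOLC1, a nucleolar chaperone of snoRNPs, had -0.77 and SHQ1, an assembly factor of H/ACA particles, 1.05, while averaged over the times both were higher in siCPSF6, by 1.32 and 1.17.

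Of 19 factors of nonsense-mediated decay, 6 were lower and 1 higher in the difference of the 6 h change (median -0.15). UPF3B had -0.69 (limma adjusted p = 0.0051) and SMG8 0.75 (limma adjusted p = 0.0084). In the average over the times 3 of the 19 were higher and 8 lower in siCPSF6, where 34.4% of all genes were higher and 35.4% lower. Among the 19 were UPF3B at -0.97 and its paralogue UPF3A at -0.76, both lower, and SMG8 at 0.90, higher. Of 20 protein-coding targets of that pathway, 5 were lower and none higher in the difference (median -0.37), with CARS1, a transfer RNA synthetase, at -0.96. In the average, with the same shares over all genes, 4 were higher and 9 lower. TRIB3 was higher there at 0.98 and CDKN1A lower at -0.85. The calls of the targets thus went both ways in the average and only lower in the difference. The part of the decay pathway was not tested. Of 18 exonucleases and helicases of RNA decay, 3 were lower and 3 higher in the difference (median 0.05), with the exosome subunit EXOSC4 at 0.91. For the difference of the 6 h change the shares over all genes were 12.4% lower and 12% higher, and some genes stand in more than 1 list. Per mass of total RNA the counts were 3 lower and 1 higher for snoRNP proteins, 0 and 1 for the decay factors, 4 and 0 for the decay targets, and 0 and 1 for exonucleases and helicases, beside 1.84% of all genes lower and 6.89% higher.

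The profiles of the host genes over the 12 libraries were compared by the root mean square difference of log2 values centred on each gene. SNHG16 and GAS5 were the closest pair (0.164), followed by SNHG6 and ZFAS1 (0.189), and the farthest pair was SNHG5 and SNHG12 (1.607). The 5 other genes nearest to the median profile of the host genes were ANKS3 (0.094), DPM2 (0.103), GPATCH4 (0.109), UCK1 (0.111) and MSL1 (0.116), where the median over 10324 genes was 0.430. ZNF343 was nearest to GAS5 (0.084), METTL9 to ZFAS1 (0.066) and DPM2 to SNHG1 (0.106). METTL9 changed over 6 h by 1.04 in siCPSF6 and 1.43 in siNC, next to 1.05 and 1.45 for ZFAS1.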

How the data were processed

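RNA-seq of 12 HepG2 libraries was analysed from gene tables. STAR, RSEM and hg38 are named in the submitters' processing notes, without versions, annotation or strand setting (not given in the sources used here). One deposited table is a score, namely upper-quartile normalized counts rounded by the authors, so tests for raw counts were not run. The authors also deposited TPM.

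limma 3.58.1 (R 4.3.3, trend and robust) was fitted to log2(normalized count + 1) of 12939 genes with a mean of at least 20, in 1 model of 6 group means (6 residual degrees of freedom), with Benjamini-Hochberg adjustment per comparison; the steps were tested on simulated data. A log2 fold with a pseudocount understates changes of low genes. Between replicates the chi-square per gene was 8.143 to 14.09, above counting noise. Deviations of same-numbered libraries correlated at 0.108 to 0.236 over 15 pairs of groups. The numbers were therefore taken to pair the libraries, from the values and not the labels. The main fit does not use this pairing, and the replicate block is named where it changes a call. With the block the SE of the difference over 6 h was 0.09 for SNHG1 and 0.22 for SNHG12, against 0.13 and 0.21 without it. Symbols were known for 22069 of 22148 genes, and 21694 identifiers matched GENCODE 29. The host genes and lists were chosen with earlier results of these data known. All host genes are named, with up to 4 genes of each list (smallest p in the average) and the nearest profiles. The alternatives were pseudocounts of 0.1 and 10, scaling by median ratios or spike-ins, a minimum mean of 100 or none, log2(TPM + 0.1) at a mean TPM of at least 1, limma without trend and robust, the replicate block, only the compared groups, and each library left out.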

Additional observations from a re-analysis of the deposited data

Results flagged for a closer look

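The change during the block differed between the arms, by the test of the difference itself (limma, Benjamini-Hochberg adjustment over all genes), in 1 gene over 3 h and in 7 over 6 h. These were all lower. Over all genes 0.734% were lower over 3 h, and 12.4% were lower and 12% higher over 6 h. Over 3 h SNHG6 had -0.79 (siCPSF6 minus siNC). Over 6 h the values were -0.84 for SNHG5, -0.76 for SNHG6, -0.52 for SNHG1, -0.45 for SNHG8, -0.44 for SNHG7, -0.40 for ZFAS1 and -0.38 for GAS5. SNHG5 alone also passed over 6 h with spike-in scaling (1.84% of all genes lower and 6.89% higher) and in TPM (4.38% and 8.47%). In TPM the sign of SNHG8 turned (0.04). The calls of SNHG1, SNHG7, SNHG8, GAS5 and ZFAS1 over 6 h were each lost in some fits without 1 library. The same held for the SNHG6 call over 3 h.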

How the results depend on the processing

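Counts are of the 9 tested host genes. The shares of all genes for the spike-in and TPM counts stand with the results above, and those for the other settings are not given here. With spike-in scaling, 0 passed between the arms at 0 h (4 as deposited), 1 at 3 h (3), 2 in the average (5), 0 in the difference over 3 h (1) and 1 in that over 6 h (7). In TPM, 4 passed at 3 h against 0 h in siCPSF6 (7), 0 in the difference over 3 h and 1 in that over 6 h. limma without trend and robust settings gave 3 in the average, 0 in the difference over 3 h and 3 in that over 6 h, and no filter gave 3 in the last. A mean of at least 100 gave 5 for the apparent length in the average (3). With only the compared groups, 2 passed in the difference over 3 h. With the replicate block 2 passed there as well; the block moved no other count by over 1.5 times, and 85 of 90 single values kept their call with it while 5 passed only with it. Both pseudocounts kept all 90. The alternatives for the apparent length over 6 h were chosen after seeing the data. The causes were not tested.

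Leaving out each library, the count ranged from 2 to 4 at 0 h, from 2 to 4 at 3 h and from 3 to 4 at 6 h between the arms, from 3 to 5 in the average, from 0 to 1 and from 3 to 7 in the differences over 3 and 6 h, and from 1 to 4 for the apparent length over 6 h in siCPSF6.

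Signs turned as follows. With spike-in scaling, between the arms at 0 h, SNHG1 (-0.06), SNHG5 (-0.07) and SNHG16 (-0.04), and in the average SNHG16 (-0.03); at 3 h against 0 h in siCPSF6, SNHG5 (-0.01) and SNHG6 (-0.11), and in siNC, SNHG1 (-0.63), SNHG8 (-0.64) and SNHG16 (-0.62); at 6 h against 0 h in siCPSF6, SNHG1 (-0.54), SNHG6 (-0.10), SNHG8 (-0.61), SNHG16 (-0.57) and GAS5 (-0.75), and in siNC, SNHG1 (-0.13), SNHG8 (-0.27), SNHG16 (-0.54) and GAS5 (-0.47); in the difference over 3 h, SNHG1 (0.05), SNHG16 (0.07) and GAS5 (0.02). In TPM, between the arms at 0 h, SNHG5 (-0.08), at 3 h SNHG1 (0.05) and SNHG6 (0.29), at 6 h SNHG6 (0.01), SNHG16 (0.06) and ZFAS1 (0.02), and in the average SNHG6 (0.28, which passed); at 3 h against 0 h in siCPSF6, SNHG8 (0.08), and in siNC, SNHG1 (-0.08), SNHG8 (-0.03) and SNHG16 (-0.51); at 6 h against 0 h in siCPSF6, SNHG16 (-0.46) and GAS5 (-0.16), and in siNC, SNHG16 (-0.50); in the difference over 3 h, SNHG8 (0.11) and SNHG16 (0.01), and over 6 h, SNHG8 (0.04) and SNHG16 (0.05). With median-ratio scaling, at 6 h against 0 h in siCPSF6, SNHG8 (-0.04) and GAS5 (-0.17), in siNC at 3 h, SNHG1 (-0.14), SNHG8 (-0.14) and SNHG16 (-0.12), and in the average SNHG7 (0.03).

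Without 1 library, values near 0 changed sign. Between the arms the ranges were -0.02 to 0.16 for SNHG1 and -0.04 to 0.16 for SNHG5 at 0 h, -0.17 to 0.09 for SNHG1 and -0.03 to 0.04 for SNHG16 at 3 h, -0.20 to 0.05 for SNHG12, -0.12 to 0.04 for GAS5 and -0.15 to 0.06 for ZFAS1 at 6 h, and -0.03 to 0.02 for SNHG7 in the average. At 3 h against 0 h they were -0.18 to 0.08 for SNHG1 and -0.04 to 0.00 for SNHG16 in siCPSF6, and -0.03 to 0.14 for SNHG1 and -0.01 to 0.12 for SNHG8 in siNC. In the difference over 3 h they were -0.24 to 0.02 for SNHG1 and -0.05 to 0.09 for SNHG12, and for the apparent length over 6 h in siCPSF6, -0.28 to 0.22 for SNHG6 and -0.04 to 0.03 for SNHG16. With 2 libraries a group, small differences could not be told from the spread.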
